A study of Mus musculus with 9 samples.

Results

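A set of 10 genes that mark the 2 capillary cell types of the mouse lung were followed across sorted lung endothelial cells: the aerocyte genes Car4, Tbx2, Rprml, Nckap5, Fibin and Sirpa, and the general capillary genes Kit, Plvap, Cd93 and Tmem100. These 10 genes were looked up by symbol among the 18193 genes named on the array, and each was read from its brightest probe set, judged by the mean of the 9 arrays. All 10 were found. Each of the 3 groups held 3 arrays, and all mice were 6 to 8 weeks old and of the NSG strain, which lacks T, B and natural killer cells. Healthy IgG mice carried no tumour and received control rat IgG. Metastatic IgG and metastatic DC101 mice had been injected intravenously 3 weeks earlier with MDA-MB-231-LM2, a lung-tropic derivative of a human breast cancer line, so that their lungs held metastases. They were treated on days 21 and 24 and their lungs were taken on day 25, the former with control IgG and the latter with DC101, an anti-VEGFR2 antibody, at 40 mg per kg. Endothelial cells were sorted from whole lung as CD31+ cells after exclusion of other lineages and of cancer cells, so each array averages over all lung vessels, near to metastases or not.

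The lung alveolus is lined by a capillary net made of 2 endothelial cell types. Aerocytes are large, net-like cells that lie against the thin gas-exchange surface and depend on VEGF signals from the epithelium. General capillary cells carry the wider range of capillary functions, including control of vascular tone and lipid uptake, and act as progenitors for both types after injury. In pooled endothelial RNA such as this, fewer cells of a type and less of a transcript per cell cannot be told apart.

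The labelled cell type was checked first. The mean log2 level of 10 pan-endothelial markers lay between 13.46 and 13.54 in all 9 arrays, against an array median of 8.96 to 9.10 over the 18193 genes. Single markers of that list did move. In metastatic IgG against healthy lungs Emcn rose by 0.53 (limma, adjusted p = 0.0341), and Tek, at -0.36 (0.0714), did not pass. The epithelial sorting marker Epcam lay below the array median, with group means of 7.29 to 7.36. Sftpc, a surfactant gene of alveolar epithelium, nevertheless had group means of 11.67 to 13.03, so epithelial RNA was present in the sorted samples. The 3′ to 5′ signal difference of Gapdh, a sign of RNA quality, was 0.69 to 0.77 in healthy arrays, 0.47 to 0.57 in metastatic IgG arrays and 0.35 to 0.60 in metastatic DC101 arrays. The same difference for Actb overlapped between the groups, at -0.11 to 0.09, 0.01 to 0.09 and 0.00 to 0.14. The Gapdh difference moved with the presence of metastasis, and its part in the results was not tested.

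Rprml and Nckap5 were the members whose levels differed between metastatic IgG and healthy lungs by the limma test, and the 250 bases before their start sites are shown for that reason. Both come from RefSeq on GRCm38.p6, written 5′ to 3′ on the strand of the gene, with capitals for matches to the GC box letters GGGCGG or their reverse complement CCGCCC. The Rprml stretch is chr11:103649259-103649508 on the plus strand and the Nckap5 stretch is chr1:126830633-126830882 on the minus strand.

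Rprml: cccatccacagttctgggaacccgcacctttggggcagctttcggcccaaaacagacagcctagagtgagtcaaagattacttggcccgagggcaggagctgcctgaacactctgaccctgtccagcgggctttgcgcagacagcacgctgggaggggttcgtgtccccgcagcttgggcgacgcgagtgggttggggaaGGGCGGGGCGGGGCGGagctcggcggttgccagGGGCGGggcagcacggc

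Nckap5: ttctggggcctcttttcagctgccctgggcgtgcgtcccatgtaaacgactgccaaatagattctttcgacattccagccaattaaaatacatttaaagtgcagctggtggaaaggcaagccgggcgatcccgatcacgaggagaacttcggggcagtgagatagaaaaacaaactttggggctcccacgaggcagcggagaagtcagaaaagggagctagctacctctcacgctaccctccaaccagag

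The Rprml stretch held 4 GC box matches, 3 of them in one run in which each shares its last base with the next, and its GC content was 66.8%. The Nckap5 stretch held 0 and its GC content was 52.4%, which was also the median of the 32851 promoter entries. A GC box match was present in 32.7% of those entries. Nckap5 had a second entry, at chr1:126492928-126493177 on the minus strand, which is not printed. It held 1 GC box match and its GC content was 58.8%. Neither printed stretch held the ETS letters AGGAAG or CTTCCT, present in 29.5% of entries, or GGCGCC, a palindrome of BMP-SMAD sites, present in 9.59%. These matches describe letters only. Car4, Fibin and Kit also had an entry, and Tbx2, Sirpa, Plvap, Cd93 and Tmem100 are named only.

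Metastatic IgG lungs were compared with healthy IgG lungs to ask how the capillary markers stood in the presence of metastases. Of the 6 aerocyte markers, Rprml and Nckap5 fell and the other 4 did not pass the test. None of the 4 general capillary markers passed. Differences were negative for 5 of the 6 aerocyte markers, 3 of the 4 general capillary markers and 54.9% of all genes. Across all genes 6.53% were called in this comparison at an adjusted p below 0.05 (limma, Benjamini-Hochberg over 18193 genes), 3.93% higher and 2.6% lower. In the members' count, 2 of 10 were lower and 0 higher. The median log2 difference was -0.49 over the aerocyte members and -0.11 over the general capillary members, beside -0.02 over all genes.

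**Figure D1:**
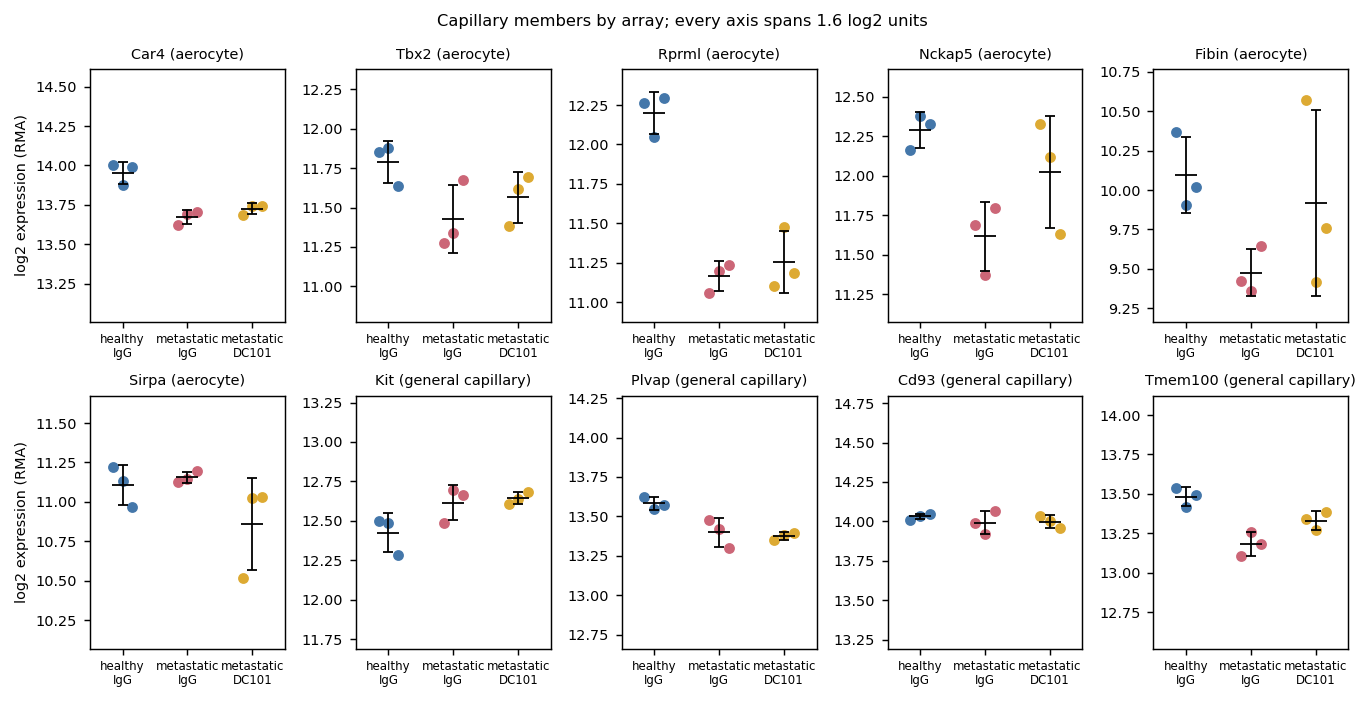
Log2 level of each of the 10 members on the 9 arrays, with 1 point per array and the group mean and SD as bars. Rprml lay between 12.05 and 12.29 in healthy arrays and at or below 11.47 in every array from metastatic lungs.

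Rprml encodes reprimo-like, a small membrane protein related to the cell-cycle inhibitor reprimo. Its log2 level was 12.26, 12.05 and 12.29 in healthy arrays, 11.06, 11.20 and 11.24 in metastatic IgG arrays, and 11.10, 11.47 and 11.18 in metastatic DC101 arrays. The healthy arrays stood above all 6 arrays from metastatic lungs. Rprml fell by 1.04 (SE 0.11, 95% interval -1.29 to -0.78, adjusted p = 0.00315) in metastatic IgG against healthy lungs, a 2.05-fold difference. It also fell by 0.95 (95% interval -1.27 to -0.63, adjusted p = 0.0193) in metastatic DC101 against healthy lungs. The first of these calls was kept when any single array was left out. The second was lost without healthy IgG replicate 1 (adjusted p = 0.0881), healthy IgG replicate 3 (0.0715), metastatic DC101 replicate 1 (0.0613) or metastatic DC101 replicate 3 (0.0502).

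Nckap5, which encodes a protein that binds the adaptor NCK, measured 12.16, 12.38 and 12.33 in healthy arrays, 11.69, 11.37 and 11.79 in metastatic IgG arrays, and 12.33, 12.12 and 11.63 in metastatic DC101 arrays. Healthy and metastatic IgG arrays did not overlap, while the DC101 arrays spanned both. Nckap5 fell by 0.67 (SE 0.13, 95% interval -0.99 to -0.36, adjusted p = 0.0307) in metastatic IgG against healthy lungs. The call was kept without metastatic IgG replicate 3 (adjusted p = 0.0475) but lost when healthy IgG replicate 1 (0.0651), 2 (0.0976) or 3 (0.0862) or metastatic IgG replicate 1 (0.0722) or 2 (0.0615) was left out, so that the count of members called went from 2 to 1. In a fit over all 9 arrays its adjusted p was 0.0681.

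Fibin encodes a secreted protein first described in fin bud development. Its levels were 10.37, 9.90 and 10.02 in healthy arrays, 9.43, 9.36 and 9.64 in metastatic IgG arrays, and 10.57, 9.42 and 9.76 in metastatic DC101 arrays. The metastatic IgG arrays lay below all healthy arrays, and the 3 DC101 arrays were the widest spread of any member in any group, at an SD of 0.59. The difference of metastatic IgG from healthy lungs was -0.62 (95% interval -0.97 to -0.28, adjusted p = 0.0544) and did not pass. It passed when the variance was moderated with a trend on level (adjusted p = 0.0433), when all probe sets of each gene were averaged (0.0454) and when the test was restricted to the brighter genes (0.0248).

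Car4 encodes carbonic anhydrase 4, an enzyme anchored on the capillary surface that interconverts carbon dioxide and bicarbonate. Its levels were 14.00, 13.87 and 13.99 in healthy arrays, 13.62, 13.69 and 13.70 in metastatic IgG arrays, and 13.69, 13.74 and 13.74 in metastatic DC101 arrays. All healthy arrays lay above all arrays from metastatic lungs. The differences were small, at -0.28 (95% interval -0.49 to -0.08, adjusted p = 0.113) for metastatic IgG and -0.23 (95% interval -0.46 to 0.00, adjusted p = 0.294) for DC101. With a variance trend on level the first passed (adjusted p = 0.004).

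Tbx2, a T-box transcription factor, differed by -0.36 between metastatic IgG and healthy lungs (95% interval -0.68 to -0.04, adjusted p = 0.186). One metastatic IgG array at 11.67 overlapped the lowest healthy array at 11.63. Sirpa encodes an inhibitory receptor for CD47 and is best known from myeloid cells. It did not share the negative sign, at 0.05 (95% interval -0.18 to 0.28, adjusted p = 0.827), with metastatic IgG arrays at 11.13 to 11.19 inside the healthy range of 10.97 to 11.22. Of 11 macrophage and monocyte markers, 4 rose in the same comparison, and the mean of the list ranged from 8.43 to 8.61 in healthy arrays, 8.79 to 8.89 in metastatic IgG arrays and 8.40 to 8.89 in DC101 arrays. Those 4 were C1qa, C1qb, C1qc and Mrc1. The differences of 5 others were negative without passing, among them Ptprc at -0.68 (adjusted p = 0.0614), which encodes the CD45 that the sort selected against together with CD11b. The part of such cells in the Sirpa signal was not tested.

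In metastatic IgG lungs Tmem100 stood farther from its healthy level than the other general capillary members did, while in DC101 lungs Kit and Plvap did so. Tmem100 encodes a membrane protein of endothelium that acts downstream of the receptor ALK1. Its levels were 13.53, 13.42 and 13.49 in healthy arrays, 13.10, 13.26 and 13.18 in metastatic IgG arrays, and 13.34, 13.27 and 13.38 in metastatic DC101 arrays. The 3 groups did not overlap, with DC101 in between. The metastatic IgG difference was -0.30 (95% interval -0.51 to -0.09, adjusted p = 0.106) and did not pass, although it did with a variance trend on level (adjusted p = 0.00767) and with all probe sets averaged (-0.51, adjusted p = 0.0168).

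Kit, the receptor for stem cell factor, was the member with the highest positive difference. Its levels were 12.50, 12.49 and 12.28 in healthy arrays, 12.49, 12.70 and 12.66 in metastatic IgG arrays, and 12.61, 12.64 and 12.69 in metastatic DC101 arrays. The difference of metastatic IgG from healthy lungs was 0.19 (95% interval -0.06 to 0.44, adjusted p = 0.361), with overlap between the groups. The mean of 6 mast cell markers, cells that also express Kit, was 6.86 to 7.10 in healthy arrays and 6.73 to 6.77 in metastatic IgG arrays, below the array median in both.

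Plvap, which forms the diaphragms of caveolae and fenestrae, measured 13.55 to 13.62 in healthy arrays and 13.30 to 13.48 in metastatic IgG arrays. These did not overlap, yet the difference of -0.18 did not pass (95% interval -0.40 to 0.03, adjusted p = 0.296). Cd93, an endothelial receptor for the matrix protein multimerin 2, lay between 13.92 and 14.06 in all 9 arrays and differed by -0.04 (95% interval -0.24 to 0.16, adjusted p = 0.843). In this comparison 6 of the 10 members had arrays that did not overlap between the groups, all 6 on the lower side, while 27.6% of all genes did not overlap and 14.7% were lower and 13.0% higher without overlap.

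**Figure D2:**
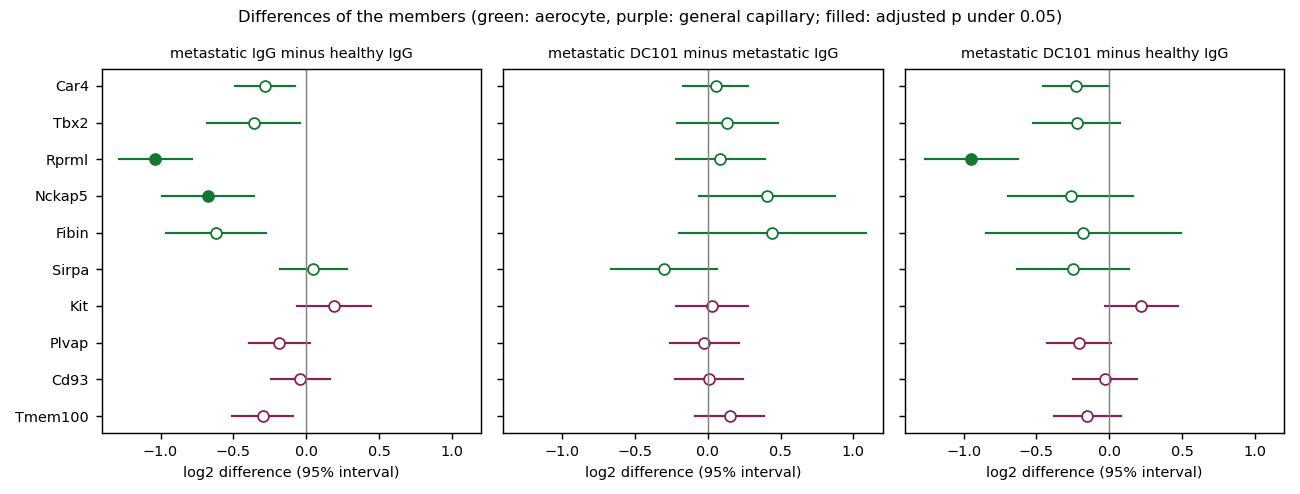
Log2 difference of each member in the 3 comparisons, with 95% intervals from limma. Rprml and Nckap5 are the members called in metastatic IgG against healthy lungs, Rprml alone in DC101 against healthy lungs, and no member in DC101 against metastatic IgG lungs.

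The members of each cell type were then averaged per array, after subtracting each gene's healthy mean. The aerocyte mean was -0.54, -0.56 and -0.36 in the metastatic IgG arrays and -0.31, -0.34 and -0.40 in the DC101 arrays. The general capillary mean was -0.12, -0.05 and -0.08 in metastatic IgG arrays and -0.05, -0.06 and -0.02 in DC101 arrays. The aerocyte mean was thus the lower of the pair in all 6 arrays from metastatic lungs, by 0.40 ± 0.11 (SD, n = 3) on average in metastatic IgG arrays and by 0.31 ± 0.06 in DC101 arrays. No test was made of these means because the members were chosen with earlier results known. The 2 sets also differed in signal level. The general capillary members stood at percentiles 94.4 (Kit) to 99.8 (Cd93) of all genes, and the aerocyte members at 59.4 (Fibin) to 99.5 (Car4). The part of signal level in the distance between the 2 means was not tested.

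**Figure D3:**
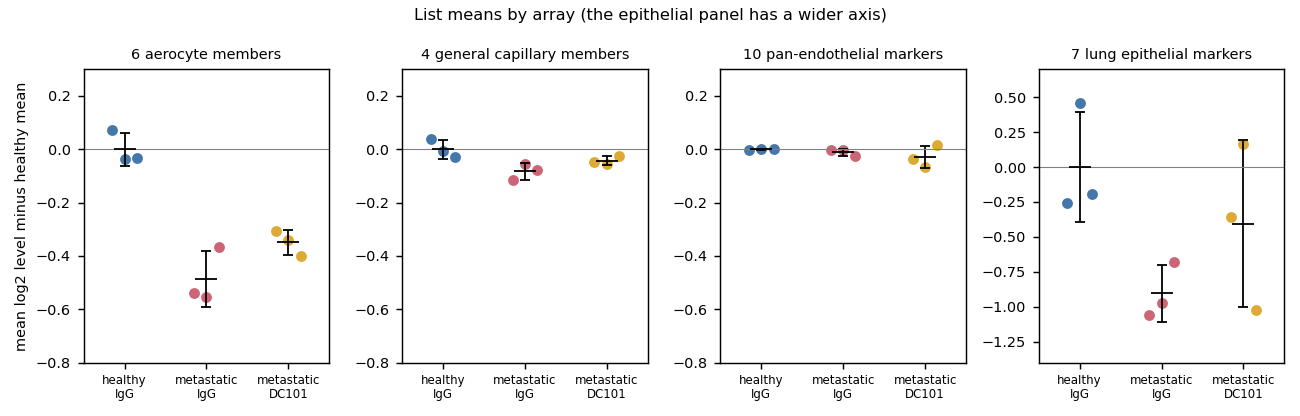
Mean log2 level per array minus the healthy mean for the 6 aerocyte members, the 4 general capillary members, 10 pan-endothelial markers and 7 lung epithelial markers, with group mean and SD. The aerocyte mean was lower than healthy in all arrays from metastatic lungs, and the epithelial mean was widely spread in the DC101 group. The pan-endothelial group mean was -0.01 from healthy in metastatic IgG lungs and -0.03 in DC101 lungs.

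Epithelial signal also differed between the groups. Of 7 lung epithelial markers, 4 fell in metastatic IgG against healthy lungs, among them Sftpc by 1.36 (adjusted p = 0.0207). Sftpb at -0.86 (0.0614), Epcam at -0.01 (0.969) and Scgb1a1 at 0.79 (0.755) did not pass. The mean of that list ranged from 9.97 to 10.69 in healthy arrays, 9.17 to 9.56 in metastatic IgG arrays and 9.21 to 10.40 in DC101 arrays. That mean includes Scgb1a1, which varied within groups and measured 8.27, 12.16 and 8.25 in healthy arrays. Of 8 fibroblast and mural markers, Col1a1 rose by 1.85 (adjusted p = 0.00761) and Col1a2 by 1.29 (0.0234) in the same comparison, while Dcn fell by 1.05 (0.0466). Of 6 venous markers, Ackr1, Selp and Nr2f2 rose and Slc6a2 fell, and the list mean stood 0.45 above healthy. Of 6 arterial markers, Bmx fell, and the list mean was -0.17 from healthy. The part of epithelial, fibroblast and mural RNA, or of the mix of vessels, in the differences of the members was not tested.

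Of the members, 5 had more than 1 probe set, 19 in all over the 10 genes, and these were set side by side in a fit over 45037 probe sets, of which 3.66% were called. For Car4 the other probe set gave -0.33 (adjusted p = 0.138), close to the -0.28 of the set used. The other Tmem100 probe set gave a larger difference of -0.71 (95% interval -1.07 to -0.35, adjusted p = 0.0571). The other Kit probe set gave 0.51 (95% interval 0.23 to 0.80, adjusted p = 0.0743) and its metastatic IgG arrays did not overlap the healthy ones. The 5 probe sets of Cd93 ranged from -0.21 to 0.07, and the 3 of Sirpa from -0.05 to 0.05. None of the additional probe sets passed the test. In this wider fit Rprml kept its call (adjusted p = 0.00692) and Nckap5 missed it (adjusted p = 0.0518).

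**Figure D4:**
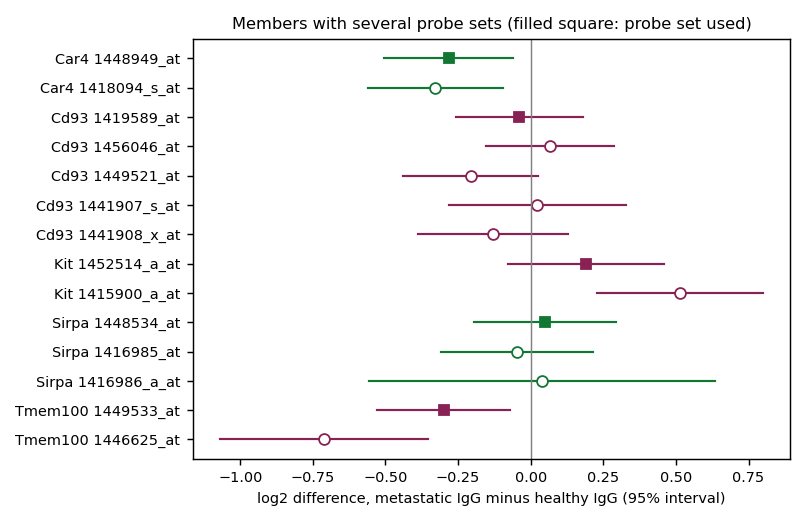
Difference of metastatic IgG from healthy lungs for each probe set of the 5 members that have several, with 95% intervals; filled squares mark the probe set used. The additional probe sets of Kit (0.51) and Tmem100 (-0.71) lay farther from 0 than the sets used.

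DC101 was compared with control IgG in metastatic lungs to ask whether VEGFR2 blockade altered the capillary markers. None of the 10 members passed, as none of all genes did (0.0% called), and an unadjusted p below 0.05 was found for 0 members and 1209 genes, or 6.65%. Rprml differed by 0.09 (95% interval -0.22 to 0.39, adjusted p = 0.911) and Car4 by 0.05 (95% interval -0.17 to 0.28, adjusted p = 0.925). Nckap5 differed by 0.41 (95% interval -0.06 to 0.88) and Fibin by 0.44 (-0.20 to 1.08). Without metastatic DC101 replicate 1 these values were 0.26 and 0.12, and that of Sirpa went from -0.30 to -0.13. Without metastatic DC101 replicate 2 the Fibin value was 0.69, and the highest Nckap5 value with an array left out was 0.60. Sirpa, at -0.30 (95% interval -0.66 to 0.07), and Tmem100, at 0.15 (95% interval -0.09 to 0.39), were the 2 members whose arrays did not overlap, against 12.4% of all genes, 6.95% lower and 5.4% higher. Kit, Plvap and Cd93 differed by 0.03, -0.02 and 0.01, and Tbx2 by 0.13.

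Of the group means, 7 of the 10 members had the order healthy, then DC101, then metastatic IgG: Car4, Tbx2, Rprml, Nckap5, Fibin, Cd93 and Tmem100. The DC101 and metastatic IgG means are neighbours in that order, and they did not differ by the test for any of the 7. The share of all genes with that order is not given here. Plvap had the order healthy, metastatic IgG, DC101, Kit the reverse of that, and Sirpa was highest in metastatic IgG and lowest in DC101.

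DC101 lungs against healthy lungs share arrays with both other comparisons. Rprml was the 1 member called, where 2.42% of all genes were called, 1.58% higher and 0.835% lower. An unadjusted p below 0.05 was found for 2 members and for 17.0% of all genes. Nckap5 differed by -0.27 (95% interval -0.70 to 0.17, adjusted p = 0.523), Fibin by -0.18 (-0.85 to 0.49), Sirpa by -0.25 (-0.63 to 0.13) and Tbx2 by -0.22 (-0.53 to 0.08). Kit differed by 0.22 (95% interval -0.03 to 0.47), Plvap by -0.21 (-0.43 to 0.01), Tmem100 by -0.15 (-0.38 to 0.08) and Cd93 by -0.03 (-0.25 to 0.19). Arrays of 5 members, Car4, Rprml, Kit, Plvap and Tmem100, did not overlap between these groups, Kit higher and the others lower in DC101 lungs, beside 23.1% of all genes, 13.6% lower and 9.44% higher.

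Other genes of the 2 cell types were read from lists of the same kind. Of 8 further aerocyte genes, 3 fell and 1 rose in metastatic IgG against healthy lungs, with a median of -0.29. Ednrb, the endothelin receptor B, measured 13.08, 12.98 and 13.03 in healthy arrays, 12.34, 12.36 and 12.49 in metastatic IgG arrays and 12.58, 12.52 and 12.51 in DC101 arrays. It fell by 0.63 (adjusted p = 0.00885) in metastatic IgG lungs and by 0.49 (adjusted p = 0.0474) in DC101 lungs. The cell-cycle inhibitor Cdkn2b fell by 0.80 (adjusted p = 0.0396) and the membrane protein gene Pmp22 by 0.39 (adjusted p = 0.0415) in metastatic IgG lungs.

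Apln went the other way. It encodes apelin, a peptide ligand made by aerocytes and by sprouting endothelium, and measured 10.98, 10.96 and 11.18 in healthy arrays, 12.01, 12.04 and 12.29 in metastatic IgG arrays and 11.30, 11.81 and 12.29 in DC101 arrays. It rose by 1.07 (adjusted p = 0.00378) in metastatic IgG lungs. The DC101 difference from healthy was 0.76 (95% interval 0.21 to 1.31, adjusted p = 0.163). Kdr, which encodes VEGFR2, the target of DC101, differed by -0.04 (95% interval -0.24 to 0.16, adjusted p = 0.840) between metastatic IgG and healthy lungs.

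Of 9 further general capillary genes, Hilpda and Wif1 fell in metastatic IgG lungs and 0 rose. Hilpda, a lipid droplet protein gene, fell by 0.95 (adjusted p = 0.00249), and Wif1, a secreted Wnt inhibitor, by 0.88 (adjusted p = 0.0356). In DC101 against healthy lungs they fell by 0.65 (adjusted p = 0.0305) and 0.99 (adjusted p = 0.0408). The median of the 9 was -0.10 in metastatic IgG against healthy lungs, beside -0.29 for the 8 aerocyte genes. In that comparison the list means had the opposite order, at -0.24 for the 9 general capillary genes and -0.20 for the 8 aerocyte genes. The aerocyte mean there included the rise of Apln by 1.07, and the general capillary mean the falls of Hilpda by 0.95 and Wif1 by 0.88. In DC101 against healthy lungs the list means were -0.13 for the general capillary genes and -0.20 for the aerocyte genes. By group mean, these further lists thus had the lower aerocyte value in DC101 lungs but not in metastatic IgG lungs. Lpl, the lipoprotein lipase that general capillary cells hold at their surface, differed by -0.38 (adjusted p = 0.0618) in metastatic IgG against healthy lungs.

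Ligands, partners and regulators of the members were read last. The Kit ligand Kitl differed by 0.00 between metastatic IgG and healthy lungs (adjusted p = 0.990), the Sirpa ligand Cd47 by -0.13 (0.425) and the Cd93 ligand Mmrn2 by 0.06 (0.742). The BMP pathway, upstream of or beside Tmem100, was represented by receptor and target genes. Acvrl1, which encodes ALK1, differed by -0.26 (adjusted p = 0.136) and its co-receptor Eng by -0.31 (adjusted p = 0.0957). The receptor gene Bmpr2 differed by -0.20 (adjusted p = 0.251).

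The 3 target genes of the BMP pathway on the list fell in metastatic IgG against healthy lungs. Smad6, an inhibitory SMAD, measured 13.38, 13.34 and 13.43 in healthy arrays, 12.71, 12.56 and 12.71 in metastatic IgG arrays and 12.82, 12.81 and 12.67 in DC101 arrays. It fell by 0.72 (adjusted p = 0.00582) in metastatic IgG lungs and by 0.62 (adjusted p = 0.0281) in DC101 lungs. Id1 and Id3, inhibitors of helix-loop-helix transcription factors, fell by 0.66 (adjusted p = 0.0240) and 0.54 (adjusted p = 0.0291) in metastatic IgG lungs. In DC101 against healthy lungs Id3 fell by 0.60 (adjusted p = 0.0350), while Id1, at -0.58 (adjusted p = 0.0567), did not pass. Of the 11 genes in this list, these 3 were the ones called in metastatic IgG against healthy lungs, where the median was -0.26.

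**Figure D5:**
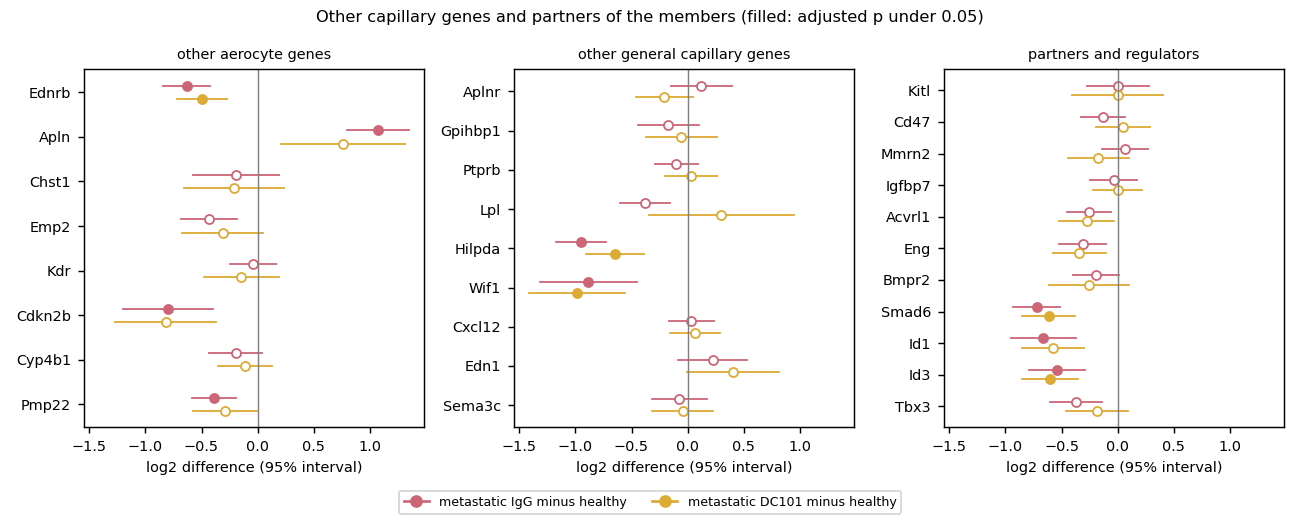
Log2 differences from healthy lungs, with 95% intervals, for 8 other aerocyte genes, 9 other general capillary genes and 11 partners and regulators; filled points passed an adjusted p of 0.05. Ednrb, Hilpda, Wif1, Smad6 and Id3 are filled in both comparisons, and Apln lies on the positive side.

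Genes with the pattern most like a member were sought by the root mean square log2 difference over the 9 arrays, after centring each gene. For Rprml, whose own value around its mean was 0.484, the nearest were Bbc3 (0.077), Cx3cl1 (0.093), Gsta3 (0.128), AU021092 (0.154) and Ier2 (0.155). For Tmem100, whose own value was 0.134, the nearest were Numb (0.036), Igdcc3 (0.041) and Fndc1 (0.042). These are descriptions over the same 9 arrays, in which all 3 groups contribute.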

How the data were processed

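Sorted lung endothelial RNA was amplified and hybridised to Affymetrix mouse genome arrays, 1 array per sample. The log2 values deposited by the authors had been background-corrected, quantile-normalised and summarised per probe set by RMA. Nothing in the table gives the log base, and it was taken as 2 from RMA's usual scale. The table held 45101 probe sets, of which 64 controls were left out and 34945 named 1 gene, giving 18193 genes each read from its brightest probe set over the 9 arrays.

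Groups were compared with limma 3.58.1 in R 4.3.3, fitting the 6 arrays of each comparison, with empirical Bayes moderation, two-sided tests and Benjamini-Hochberg adjustment over all genes. A call was an adjusted p below 0.05. The fit was tested on simulated data. The labels call the arrays biological replicates without naming separate mice. Each p-value sets a group difference against the spread between these arrays, moderated over all genes. Whether that is the spread between mice is not known. With 3 arrays per group, the number of arrays limits the precision.

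The members and gene lists were chosen with earlier results of these data known. All 10 members are named, with other listed genes where they were called or serve as examples, and the genes most alike in pattern. Prx, on the aerocyte list, was not analysed here. Alternatives covered the arrays in the fit, a replicate block, a variance trend, the probe set per gene, a level filter, centring on pan-endothelial markers and leaving out each array. Promoter sequences are those of RefSeq for GRCm38.p6.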

Additional observations from a re-analysis of the deposited data

How the results depend on the processing

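Between metastatic IgG and healthy lungs, 2 members and 1188 genes were called. The members called were 1 with all 9 arrays in one fit, 5 with a variance trend, 4 with the mean of all probe sets, and 1 to 2 when an array was left out. The genes called numbered 1042 with all 9 arrays in one fit, 1777 with a variance trend and 1260 with the mean of all probe sets. They numbered 556 to 759 when an array was left out, a setting with fewer arrays. Between DC101 and healthy lungs, the 440 genes called became 662 with all 9 arrays and 110 to 361 when an array was left out, and the 1 member called became 0 to 1. Rprml kept its call against healthy lungs in metastatic IgG under all 13 alternatives tried. Centred on pan-endothelial markers, the general capillary mean of the DC101 arrays was -0.013 in place of -0.04. Causes of these shifts were not tested.

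The replicate numbers did not pair the arrays: deviations of same-numbered arrays correlated between -0.054 and 0.084, and in each comparison 2 of 6 arrays correlated best with their own number. With the replicate number as a block, 1 member and 689 genes were called for metastatic IgG against healthy lungs, and 0 members and 247 genes for DC101 against healthy lungs.

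Signs turned for differences near 0. When an array was left out, Sirpa in metastatic IgG against healthy lungs ranged from -0.0198 (without healthy IgG replicate 3) to 0.105. For DC101 against metastatic IgG, Rprml ranged from -0.0235 (without DC101 replicate 2) to 0.163, Kit from -0.0358 (without metastatic IgG replicate 1) to 0.07, Plvap from -0.0718 to 0.0163 (without metastatic IgG replicate 1), and Cd93 from -0.0274 (without metastatic IgG replicate 2) to 0.0438, also turning without DC101 replicate 1. For DC101 against healthy lungs, Fibin ranged from -0.51 to 0.071 (without DC101 replicate 2). With the mean of all probe sets, Kit was -0.0871 for DC101 against metastatic IgG and Cd93 0.0321 for DC101 against healthy lungs. Single probe sets, chosen after seeing the data, gave -0.0464 for Sirpa and 0.067 and 0.0228 for Cd93 (metastatic IgG against healthy), -0.20 for Kit (DC101 against metastatic IgG), and 0.15 and 0.21 for Cd93 (DC101 against healthy). Kit has no probe set once the s, x and a types are left out, so that setting gave it no value.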
